A study of Mus musculus with 18 samples.

Results

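The RNA levels of 8 heat shock chaperone genes were described in mouse embryonic stem cells: the small heat shock protein genes Cryab, Hspb1, Hspb2 and Hspb8, the near-identical HSP70 genes Hspa1a and Hspa1b, the J-domain gene Dnajb1 and the HSP110 gene Hsph1. They are 8 of 56551 genes in the deposited table, which holds TPM, a relative, length-scaled unit in which each library sums to 1000000 transcripts. The members were chosen by name with their TPM in these 18 libraries already known, so their levels and fold changes are given as a description, with no test. The libraries came from 6 groups of 3: Ring1a-KO, Ring1b-KO, Ring1a/b-dKO (both genes), Pcgf-4KO (Pcgf1/3/5/6-/-), Pcgf-6KO (labelled Pcgf1/2/3/4/5/6-/-) and WT. All groups carried the same cell type label and the same RNA protocol, in which cells were detached with trypsin and lysed in Trizol. Nothing in the labels tells separate cultures or clones apart within a group, so each p-value below measures only the spread between these libraries.

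RING1A (gene Ring1) and RING1B (gene Rnf2) are the ubiquitin ligase subunits of Polycomb repressive complex 1, which marks histone H2A at silenced genes. Each form of that complex is defined by 1 of the PCGF proteins, PCGF4 being the product of Bmi1. Heat shock chaperones keep proteins folded: small heat shock proteins hold unfolding proteins without using ATP, HSP70 refolds them, J-domain proteins hand it clients and start its ATPase, and HSP110 exchanges its nucleotide. The stress-responsive genes among them are known targets of the factor HSF1, which binds inverted GAA repeats called heat shock elements.

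The libraries had between 14207 and 16585 genes at 1 TPM or more. All 8 embryonic stem cell markers listed for the check averaged 1 TPM or more in all 6 groups. Their summed level, led by Dppa5a in every group, was 1854 to 2297 TPM in Pcgf-6KO and 4529 to 4593 TPM in WT. It was 2876 to 3193 TPM in Ring1a/b-dKO, 3702 to 3830 TPM in Pcgf-4KO, 4235 to 4559 TPM in Ring1a-KO and 7542 to 8185 TPM in Ring1b-KO. Of these markers only Zfp42 averaged higher in Pcgf-6KO (65.7 TPM) than in WT (56.65 TPM). RNA of the targeted genes followed the labels in part: Pcgf6 averaged 0.06 TPM in Pcgf-4KO and 10.6 TPM in Pcgf-6KO, against 53.0 TPM in WT, and Rnf2 averaged 49.4 TPM in Ring1b-KO and 22.8 TPM in Ring1a/b-dKO, against 71.3 TPM in WT. Pcgf2 averaged 16.8 TPM in Pcgf-6KO and 55.3 TPM in Pcgf-4KO, against 68.6 TPM in WT. Pcgf1 averaged 3.03 TPM in Pcgf-6KO and 1.23 TPM in Pcgf-4KO, against 10.9 TPM in WT. Ring1 averaged 4.05 TPM in Ring1a-KO and 6.09 TPM in Ring1a/b-dKO, against 7.21 TPM in WT. Its Ring1a/b-dKO libraries ran from 2.74 to 9.40 TPM and overlapped WT (7.10 to 7.42 TPM). Bmi1 went against its label, at 15.6 TPM in the libraries labelled Pcgf-6KO and 1.60 TPM in WT. So did Pcgf5, at 22.1 TPM in Pcgf-6KO and 14.5 TPM in Pcgf-4KO, against 9.55 TPM in WT. Both were also high in groups not labelled as lacking them. Bmi1 averaged 9.99 TPM in Ring1b-KO, 15.15 TPM in Ring1a/b-dKO and 11.4 TPM in Pcgf-4KO, but 1.74 TPM in Ring1a-KO. Pcgf5 averaged 21.2 TPM in Ring1b-KO, 26.4 TPM in Ring1a/b-dKO and 11.3 TPM in Ring1a-KO. Pcgf3 averaged 12.4 TPM in Pcgf-6KO and 11.8 TPM in Pcgf-4KO, against 13.2 TPM in WT. A gene-level value does not check a deletion of part of a gene. Ring1a-KO replicates 2 and 3 stood apart by the share of small RNA genes, 1.594% and 0.8% of TPM against 0.136% to 0.437% in the others. The mitochondrial share was 3.58% to 4.65% of TPM in Pcgf-6KO and 6.38% to 6.88% in WT. With only nuclear protein-coding genes kept and rescaled, 58 of the members' values moved by less than the replicate spread and 6 by more. That setting also leaves out noncoding genes, so the part of the mitochondrial share alone was not tested. In bulk libraries, fewer expressing cells and less RNA per cell cannot be told apart.

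RefSeq promoter windows on GRCm38.p6 (250 bases before to 50 bases after a gene's start) were matched for 6 of the 8 members, with 8 windows. Shown first are the 250 upstream bases of the members with the highest level and of the near-identical pair, read 5' to 3' on each gene's strand, with the 2-unit heat shock element GAANNTTC in capitals. They lie at chr5:135887669-135887918 (plus strand), chr17:34959239-34959488 (minus) and chr17:34972157-34972406 (minus).
Hspb1: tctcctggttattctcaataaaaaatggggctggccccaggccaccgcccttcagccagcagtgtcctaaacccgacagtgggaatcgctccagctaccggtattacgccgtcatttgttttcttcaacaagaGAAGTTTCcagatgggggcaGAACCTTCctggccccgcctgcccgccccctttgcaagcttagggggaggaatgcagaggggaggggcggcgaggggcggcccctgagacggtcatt
Hspa1b: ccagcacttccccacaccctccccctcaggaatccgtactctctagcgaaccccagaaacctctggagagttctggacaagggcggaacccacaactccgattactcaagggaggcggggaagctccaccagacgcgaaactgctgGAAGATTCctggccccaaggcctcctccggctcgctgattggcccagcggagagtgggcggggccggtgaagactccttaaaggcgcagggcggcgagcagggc
Hspa1a: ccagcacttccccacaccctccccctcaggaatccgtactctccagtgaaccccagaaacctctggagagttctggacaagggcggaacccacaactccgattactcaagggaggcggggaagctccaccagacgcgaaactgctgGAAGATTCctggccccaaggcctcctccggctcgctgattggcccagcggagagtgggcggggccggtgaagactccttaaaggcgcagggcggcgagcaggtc
Hspb1 held the element at positions -117 and -97 from its start, and both HSP70 genes held it at -104. The windows of Hspa1a and Hspa1b differed at 4 of 300 positions. In Hspb8 and Hsph1 the element lay just past the start, at +3 and within a longer 3-unit element at +16 (first of 2 windows of Hsph1). Both sites are shown with flanking bases because they hold the remaining matches to this element: chr5:116422844-116422873 (minus), with the 2-unit element in capitals, and chr5:149636279-149636308 (minus), with the 3-unit element in capitals.
Hspb8: agaagccaggaGAAGTTTCtaggctcgcga
Hsph1: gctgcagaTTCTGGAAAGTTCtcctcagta
GAANNTTC, which is its own reverse complement, was present in windows of 5 of these 6 members (all but Dnajb1) and in 7.86% of 32851 windows of that table. Hsph1 held the 3-unit element (GAANNTTC followed by NNGAA, or TTCNN followed by GAANNTTC, so it overlaps the 2-unit forms), which 0.603% of all windows held, and also the tail-to-tail form TTCNNGAA, which 8.52% held. CCAAT, on either strand, was found for Hspa1a, Hspa1b, Dnajb1 and Hsph1 and in 37.4% of windows, and TATAAA for no member and in 13.6%. The windows of Dnajb1 were 70.7% and 68.3% GC and those of the other members 58.0% to 62.3%, against a median of 52.7% over all windows. A match describes letters in the window and shows no binding.

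Cryab encodes alphaB-crystallin, a small heat shock protein first known from the lens and abundant in muscle. In the single knockouts its level was 8.78, 6.83 and 8.91 TPM in Ring1a-KO and 8.31, 7.22 and 7.33 TPM in Ring1b-KO. It was 830.26, 833.36 and 803.71 TPM in the Pcgf-6KO libraries, 60.74, 56.07 and 56.17 TPM in Pcgf-4KO and 56.65, 61.81 and 62.89 TPM in Ring1a/b-dKO, against 3.47, 3.21 and 2.99 TPM in WT. The groups thus formed 4 levels: WT lowest, both single knockouts next and overlapping each other, Ring1a/b-dKO and Pcgf-4KO above them and overlapping each other, and Pcgf-6KO above all. On log2(TPM + 1), from a limma fit over all genes, the differences from WT were 1.11 in Ring1a-KO, 1.03 in Ring1b-KO, 3.86 in Ring1a/b-dKO, 3.80 in Pcgf-4KO and 7.61 in Pcgf-6KO, each with an SE of 0.08. The difference in Pcgf-6KO ranked 3 from the top among 17842 genes tested (those that reached 1 TPM in 3 libraries or more), and as a ratio of mean TPM it was 255.2. By level, Cryab was gene number 166 in Pcgf-6KO and number 11362 in WT.

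**Figure D1:**
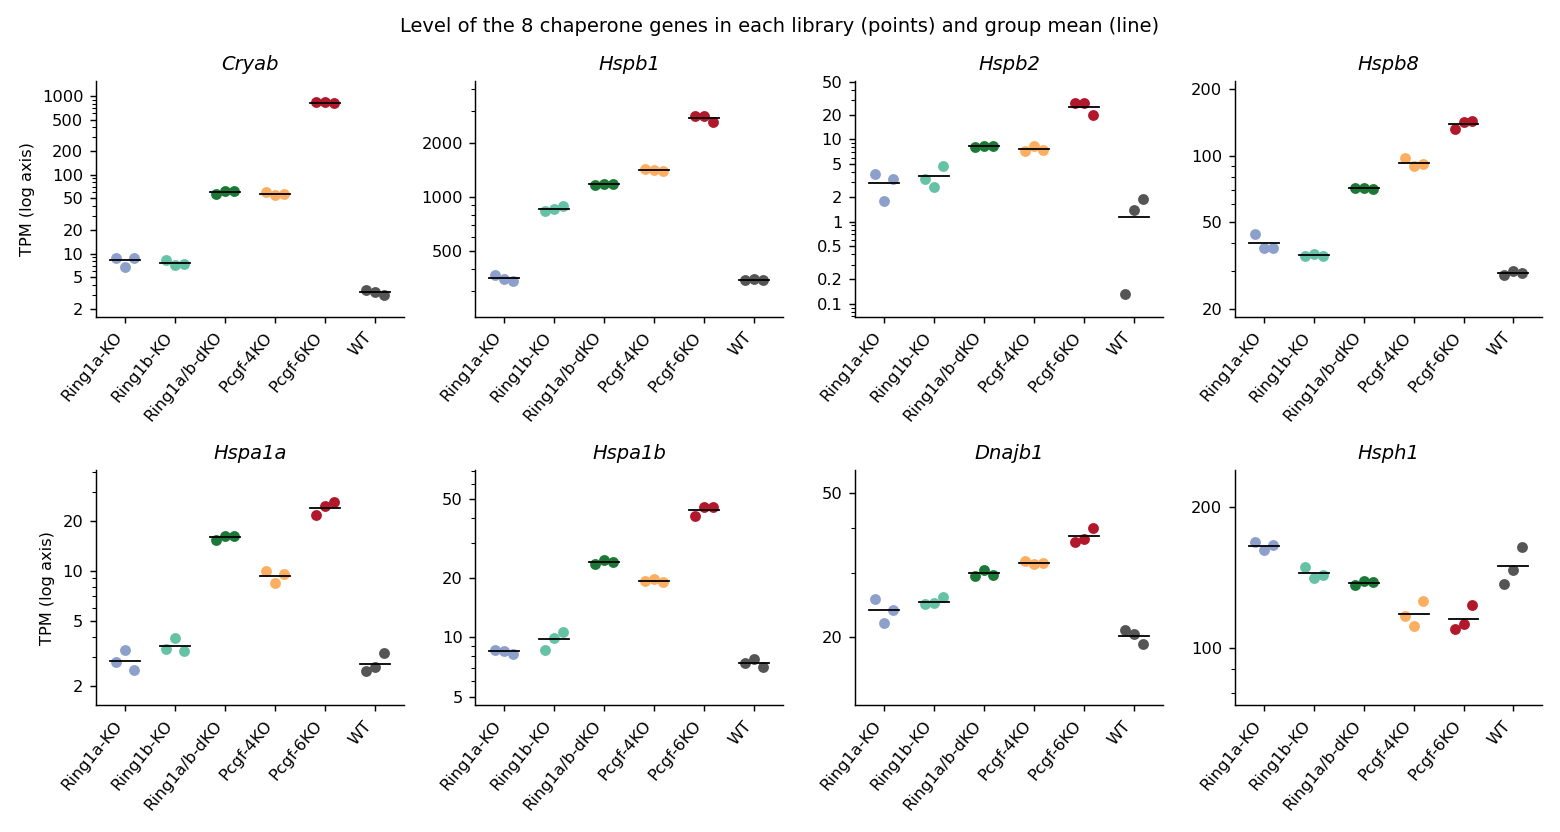
TPM of each member in every library (points, log scale) with the group mean (line), 1 panel per gene, groups in the order Ring1a-KO, Ring1b-KO, Ring1a/b-dKO, Pcgf-4KO, Pcgf-6KO and WT. Cryab reaches 833.36 TPM in a Pcgf-6KO library, against 2.99 TPM in a WT library, while Hsph1 is lower in Pcgf-6KO than in WT.

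Hspb1, which encodes HSP27, was the most abundant member in every group. Ring1b-KO had 833.1, 857.68 and 897.74 TPM, and Ring1a-KO 368.33, 349.44 and 343.3 TPM. Hspb1 had 2830.6, 2844.59 and 2635.31 TPM in Pcgf-6KO, 1439.83, 1407.31 and 1400.07 TPM in Pcgf-4KO and 1172.04, 1187.94 and 1190.08 TPM in Ring1a/b-dKO, against 346.67, 349.28 and 345.23 TPM in WT. Ring1a-KO therefore overlapped WT, and every other step in the order Ring1b-KO, Ring1a/b-dKO, Pcgf-4KO, Pcgf-6KO was without overlap. The log2 differences from WT were 0.03 in Ring1a-KO, 1.31 in Ring1b-KO, 1.77 in Ring1a/b-dKO, 2.03 in Pcgf-4KO and 2.99 in Pcgf-6KO (SE 0.04 each). By level, Hspb1 was gene number 44 in Pcgf-6KO and already number 380 in WT. Cryab RNA amounted to 29.7% ± 0.684 of the Hspb1 level in Pcgf-6KO, 5.11% ± 0.240 in Ring1a/b-dKO and 0.929% ± 0.0679 in WT (TPM, which is per length; SD, n = 3 each).

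Hspb2 encodes a small heat shock protein of muscle and lies head to head with Cryab on chromosome 9, on the opposite strand and overlapping its start (GRCm38, Hspb2 chr9:50751078-50752354, minus; Cryab chr9:50751325-50756636, plus). It had 3.31, 2.63 and 4.81 TPM in Ring1b-KO and 3.76, 1.77 and 3.35 TPM in Ring1a-KO. The level was 28.11, 27.67 and 19.8 TPM in Pcgf-6KO, 7.19, 8.25 and 7.51 TPM in Pcgf-4KO and 8.17, 8.42 and 8.42 TPM in Ring1a/b-dKO, against 0.13, 1.4 and 1.87 TPM in WT. Ring1a-KO overlapped WT. Hspb2 was thus highest in the same group as Cryab but at far lower levels, and its log2 differences from WT were 3.71 in Pcgf-6KO, 2.12 in Pcgf-4KO, 2.24 in Ring1a/b-dKO, 1.18 in Ring1b-KO and 0.96 in Ring1a-KO (SE 0.29 each). WT replicate 1 is far below the other 2: without it these values were 3.30, 1.72, 1.83, 0.78 and 0.56. The annotated exons of the pair share 252 bases, 30.2% of the 834 exonic bases of Hspb2 and 17.0% of the 1479 of Cryab. The sources used here do not say whether counting used strand, and without strand reads from those bases cannot be assigned to either gene. Hspb2 amounted to 3.06% of the Cryab level in Pcgf-6KO, 13.3% in Pcgf-4KO and 13.8% in Ring1a/b-dKO, against 36.6% in WT, where the 3 libraries ran from 3.75% to 62.5%.

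**Figure D2:**
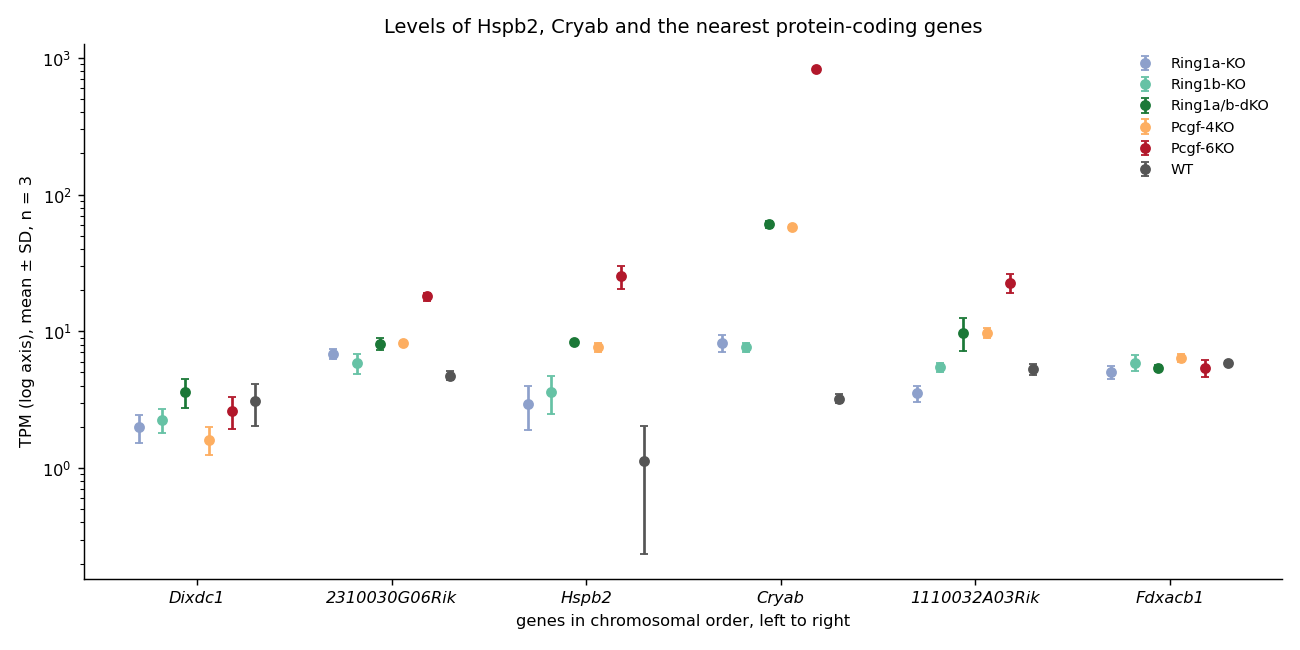
Mean TPM (points, log axis) with SD (bars, n = 3 libraries) of Hspb2, Cryab and the nearest protein-coding genes in chromosomal order, 1 colour per group. Cryab in Pcgf-6KO, at 822.4 TPM, stands above all its neighbours, of which 2310030G06Rik and 1110032A03Rik are also higher there than in WT.

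Hspb8 encodes HSP22, a small heat shock protein known to act with the cochaperone BAG3 in delivering misfolded clients to autophagy. Ring1a-KO had 43.87, 37.94 and 38.04 TPM and Ring1b-KO 34.78, 35.71 and 34.95 TPM. Hspb8 had 132.69, 142.8 and 143.83 TPM in Pcgf-6KO, 97.46, 89.87 and 91.37 TPM in Pcgf-4KO and 71.43, 71.23 and 70.2 TPM in Ring1a/b-dKO, against 28.63, 29.87 and 29.25 TPM in WT. No 2 of the 6 groups overlapped, and Hspb8 was the only member with Ring1a-KO above Ring1b-KO and both above WT without overlap. The log2 differences from WT were 0.43 in Ring1a-KO, 0.26 in Ring1b-KO, 1.25 in Ring1a/b-dKO, 1.63 in Pcgf-4KO and 2.22 in Pcgf-6KO (SE 0.05 each). After scaling to median ratios between libraries, the Ring1b-KO difference was 0.09, and the Ring1a/b-dKO difference was 0.89.

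Hspa1a and Hspa1b encode the stress-inducible HSP70 and lie next to each other on chromosome 17, both on the minus strand (GRCm38, chr17:34969190-34972156 and chr17:34956436-34959238). In the single knockouts Hspa1b had 8.26 to 8.64 TPM in Ring1a-KO and 8.66 to 10.64 TPM in Ring1b-KO, and Hspa1a had 2.5 to 3.3 TPM in Ring1a-KO and 3.26 to 3.91 TPM in Ring1b-KO. Hspa1b had 41.22, 45.98 and 45.79 TPM in Pcgf-6KO, 19.18, 19.68 and 19.15 TPM in Pcgf-4KO and 23.47, 24.55 and 24.05 TPM in Ring1a/b-dKO, against 7.42, 7.72 and 7.07 TPM in WT. Hspa1a had 21.84, 24.71 and 26.04 TPM in Pcgf-6KO, 9.97, 8.45 and 9.54 TPM in Pcgf-4KO and 15.46, 16.38 and 16.32 TPM in Ring1a/b-dKO, against 2.46, 2.6 and 3.16 TPM in WT. In the single knockouts Hspa1b lay above WT in both and Hspa1a overlapped WT in Ring1a-KO. Both genes were higher in Ring1a/b-dKO than in Pcgf-4KO without overlap, which is the reverse of the order for Hspb1 and Hspb8. The log2 differences from WT in Pcgf-6KO, Pcgf-4KO and Ring1a/b-dKO were 2.43, 1.28 and 1.57 for Hspa1b (SE 0.065) and 2.75, 1.47 and 2.19 for Hspa1a (SE 0.10). In Ring1b-KO the Hspa1a difference was 0.27 and became -0.07 after quantile normalization, so its direction there depends on the scaling.

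The split between these copies is uncertain, since their coding sequences were identical at 1915 of 1923 aligned bases (99.6%) and 58.8% of the 50-base stretches of the Hspa1a transcript also occur in that of Hspa1b. Summed, the pair had 68.5 ± 4.77 TPM in Pcgf-6KO, 28.7 ± 0.511 in Pcgf-4KO, 40.1 ± 1.03 in Ring1a/b-dKO, 13.2 ± 1.06 in Ring1b-KO and 11.3 ± 0.541 in Ring1a-KO, against 10.1 ± 0.232 in WT (SD, n = 3 each). The sum kept the order seen in each gene, and all 5 knockout groups lay above WT without overlap. Hspa1a made up 35.3% of the sum in Pcgf-6KO, 32.5% in Pcgf-4KO and 40.1% in Ring1a/b-dKO, against 27.0% in WT, with SDs of 0.358 to 3.38 percentage points. The antisense gene Gm20481 lies wholly within Hspa1a exons, over 19.0% of them, so without strand its reads could not be told from those of Hspa1a.

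Dnajb1 encodes HSP40, the J-domain partner of inducible HSP70. It averaged 37.9 TPM in Pcgf-6KO (36.56, 37.22 and 39.91), 32.0 TPM in Pcgf-4KO, 29.9 TPM in Ring1a/b-dKO, 25.01 TPM in Ring1b-KO and 23.6 TPM in Ring1a-KO, against 20.1 TPM in WT (20.81, 20.32 and 19.1). Every knockout group lay above WT without overlap, but by less than 2-fold: the log2 differences were 0.88, 0.65, 0.55, 0.30 and 0.22 in that order (SE 0.05 each). With median ratios they were 0.53, 0.34, 0.20, 0.14 and 0.19.

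Hsph1 encodes HSP110, the nucleotide exchange factor of HSP70, and was the 1 member that was lower in any knockout without overlap. It averaged 165.4 TPM in Ring1a-KO, 144.5 TPM in Ring1b-KO and 137.8 TPM in Ring1a/b-dKO. It had 109.76, 112.6 and 123.41 TPM in Pcgf-6KO and 116.74, 111.28 and 125.74 TPM in Pcgf-4KO, against 136.75, 146.59 and 164.56 TPM in WT. The log2 differences were -0.37 and -0.34 (SE 0.06 each). Ring1a-KO, Ring1b-KO and Ring1a/b-dKO overlapped WT. With median ratios the Ring1a/b-dKO difference was -0.48 and that in Ring1b-KO -0.22, against -0.11 and -0.04 as deposited, so the extent of the lower values depends on the scaling.

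**Figure D3:**
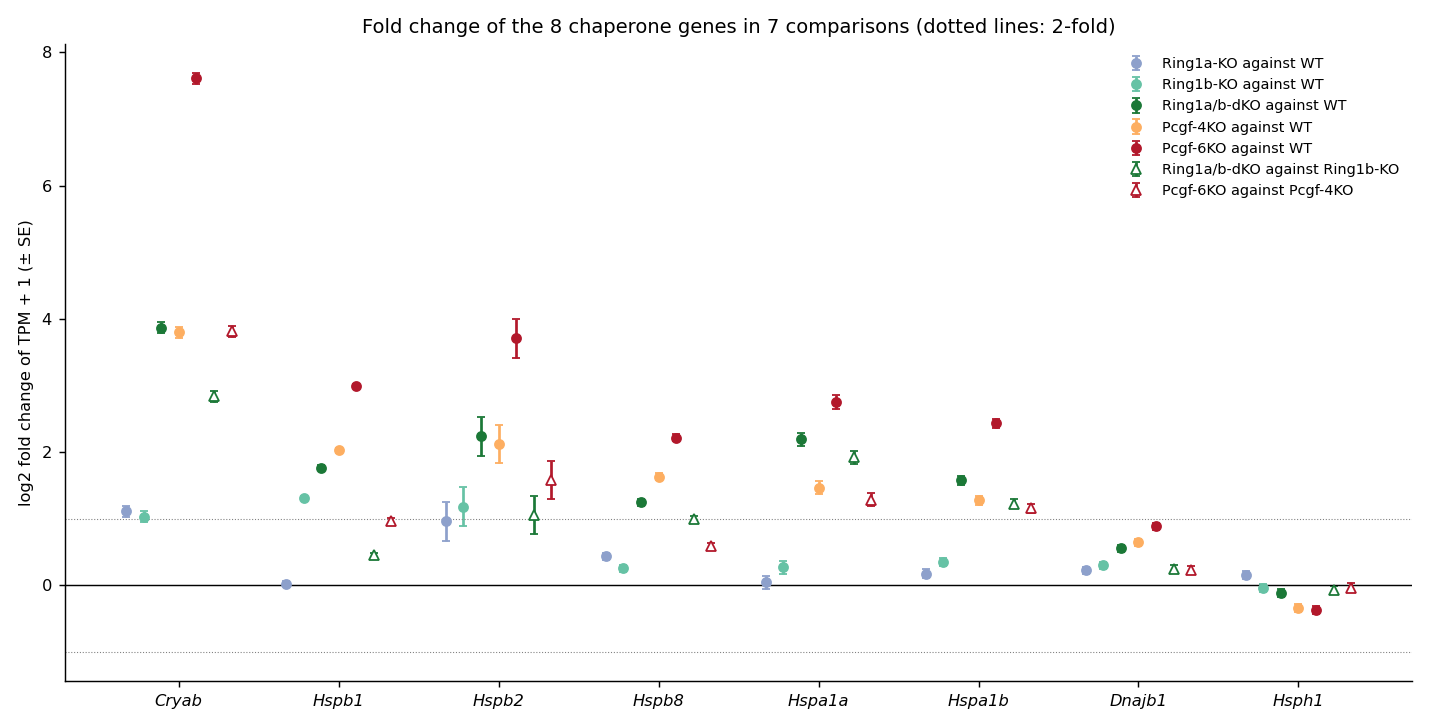
Log2 difference of each member on log2(TPM + 1), with its SE as the error bar, for the 5 knockouts against WT (circles) and both comparisons between knockouts (triangles); dotted lines mark 2-fold. Cryab in Pcgf-6KO reaches 7.61, and Hsph1 lies at -0.37 there.

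Read against all genes, the members counted as at least 2-fold higher with no overlap between libraries were 6 of 8 in Pcgf-6KO, where 23.5% of all tested genes met the same rule. They were also 6 of 8 in Pcgf-4KO (14.5% of all genes) and in Ring1a/b-dKO (17.0%): Cryab, the other small heat shock protein genes and both HSP70 genes in each. In Ring1b-KO there were 3 of 8 (8.3%), namely Cryab, Hspb1 and Hspb2, and in Ring1a-KO 1 of 8 (0.869%), Cryab. After quantile normalization these became 1 in Ring1b-KO and 0 in Ring1a-KO. The larger counts depend on the processing as well. Over the alternatives the log2 difference of Hspb8 in Ring1a/b-dKO went down to 0.89 and that of Hspa1b in Pcgf-4KO to 0.91, both under 2-fold. These 5 comparisons share the WT libraries. Since the members were chosen with these values known, nothing is read from the excess. All 8 members passed the filter on low values, and all but Hspb2 did so in the WT libraries alone. The median log2 difference of the members from WT was 0.20 in Ring1a-KO, 0.33 in Ring1b-KO, 1.67 in Ring1a/b-dKO, 1.55 in Pcgf-4KO and 2.59 in Pcgf-6KO, beside 0.01, 0.13, 0.28, 0.25 and 0.33 over all genes. Scaling to median ratios moved these medians of all genes to between -0.01 and 0.04, so small differences in the knockouts should be read relative to them.

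The double knockout was also set against Ring1b-KO, and Pcgf-6KO against Pcgf-4KO, a pair that differs in Pcgf2 and Pcgf4 by label. Against Ring1b-KO, 4 of 8 members were at least 2-fold higher in Ring1a/b-dKO without overlap (8.75% of all genes): Cryab by a log2 difference of 2.83, Hspa1a by 1.92, Hspa1b by 1.22 and Hspb2 by 1.05, with the SEs given above for each gene. Hspb8 (0.99), Hspb1 (0.46) and Dnajb1 (0.25) were higher by less, and Hsph1 was lower by a log2 difference of -0.07. Against Pcgf-4KO, 4 of 8 members were at least 2-fold higher in Pcgf-6KO (7.68% of all genes), and they were the same 4 genes: Cryab by 3.81, Hspb2 by 1.58, Hspa1a by 1.29 and Hspa1b by 1.15. Hspb1 followed with 0.97, Hspb8 with 0.58 and Dnajb1 with 0.24, and Hsph1 overlapped at -0.03.

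The effect of losing Ring1b was compared with and without Ring1a by the difference of differences, (Ring1a/b-dKO minus Ring1a-KO) minus (Ring1b-KO minus WT), on the log2 scale. Hspa1a had 1.88 ± 0.14, Cryab 1.72 ± 0.12, Hspa1b 1.05 ± 0.09, Hspb8 0.56 ± 0.07 and Hspb1 0.43 ± 0.05 (SE). For these 5 members the double knockout was further from WT than the sum of both single knockouts on this scale. Hspb2 (0.09 ± 0.41) and Dnajb1 (0.03 ± 0.08) had values within 1 SE of 0, and that of Dnajb1 was -0.13 with median ratios. Hsph1 had -0.22 ± 0.09. The median over all genes was 0.15.

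Together the 8 members made up 0.398% of TPM in Pcgf-6KO, 0.175% in Pcgf-4KO, 0.153% in Ring1a/b-dKO, 0.109% in Ring1b-KO and 0.0605% in Ring1a-KO, against 0.056% in WT. The 4 small heat shock protein genes summed to 3758 ± 135 TPM in Pcgf-6KO, against 381 ± 2.69 TPM in WT (SD, n = 3 each). Over the 18 libraries, 7 members varied together: Pearson's r of log2(TPM + 1) was 0.983 for Hspa1a and Hspa1b, 0.982 for Cryab and Hspa1b, 0.969 for Cryab and Hspb8 and 0.919 for Cryab and Hspb1. Hsph1 ran the other way, with r between -0.863 and -0.697 to the other 7. These 18 points share 6 genotypes of 3 libraries and the same scaling, so r describes mainly the order of the groups.

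Among 12391 genes with a symbol and a mean of at least 5 TPM in some group, those most like Cryab over the 18 libraries were Csf1, a macrophage growth factor gene (r = 0.994), Tagln2, an actin-binding protein gene (0.990), P2rx7, an ATP-gated channel gene (0.990), Fgd3 (0.990) and Pdrg1 (0.989). Csf1 averaged 32.2 TPM in Pcgf-6KO, against 0.447 TPM in WT, and Tagln2 478.7 TPM, against 67.1 TPM. Most like Hspb1 were E330020D12Rik (0.997), Psap, which encodes the lysosomal saposin precursor (0.996), Abhd5 (0.993), Rfk (0.992) and Bloc1s2 (0.992). Psap averaged 583.5 TPM in Pcgf-6KO and 187.8 TPM in Ring1b-KO, against 78.7 TPM in WT. Psap thus shared with Hspb1 a Ring1b-KO level well above that of Ring1a-KO (70.7 TPM). Most like Hspa1b were Phldb3 (0.993), Nipal4 (0.993), the keratin gene Krt8 (0.991), the cystatin gene Cstb (0.991) and Ehd2 (0.990). Krt8 averaged 2228 TPM in Pcgf-6KO, 455.2 TPM in Pcgf-4KO and 431.7 TPM in Ring1a/b-dKO, against 36.7 TPM in WT. The members themselves were left out of this search. None of the genes named here belongs to the rest of the chaperone network tested below, and the likeness says nothing of shared control.

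The rest of the chaperone network, 84 genes in 9 lists written without the members, was tested with limma on log2(TPM + 1), two-sided, with Benjamini-Hochberg adjustment over all 17842 genes and calls at an adjusted p under 0.05. Of these 84 genes 81 were tested. In Pcgf-6KO 46 rose and 21 fell (all genes: 51.7% higher and 22.5% lower), in Pcgf-4KO 46 rose and 19 fell (47.1% and 17.9%), and in Ring1a/b-dKO 45 rose and 19 fell (48.6% and 15.8%). In Ring1b-KO 27 rose and 15 fell (34.7% and 17.1%), and in Ring1a-KO 12 rose and 18 fell (12.3% and 10.8%), in every case against WT. Without WT replicate 1 the Ring1a-KO counts were 7 and 10. The median log2 difference of the network was 0.26 in Pcgf-6KO, 0.23 in Pcgf-4KO, 0.21 in Ring1a/b-dKO, 0.06 in Ring1b-KO and -0.03 in Ring1a-KO. Between knockouts, 39 rose and 21 fell in Ring1a/b-dKO against Ring1b-KO (41.1% and 18.8% of all genes), and 27 rose and 24 fell in Pcgf-6KO against Pcgf-4KO (28.8% and 24.0%). The interaction of both Ring1 knockouts was positive for 35 and negative for 16 of the 81 genes (33.2% and 15.5% of all genes). The direction counts depend on the scaling: with median ratios, 31 rose and 34 fell in Pcgf-6KO, 23 and 36 in Pcgf-4KO, 24 and 39 in Ring1a/b-dKO, 12 and 37 in Ring1b-KO, 11 and 17 in Ring1a-KO, 25 and 32 against Ring1b-KO, 21 and 32 against Pcgf-4KO, and 20 and 25 for the interaction. Among called genes, rises were then 47.7% of the network in Pcgf-6KO, 39.0% in Pcgf-4KO, 38.1% in Ring1a/b-dKO, 24.5% in Ring1b-KO and 39.3% in Ring1a-KO, beside 52.1%, 50.4%, 50.6%, 48.8% and 48.5% of all called genes in those comparisons.

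**Figure D4:**
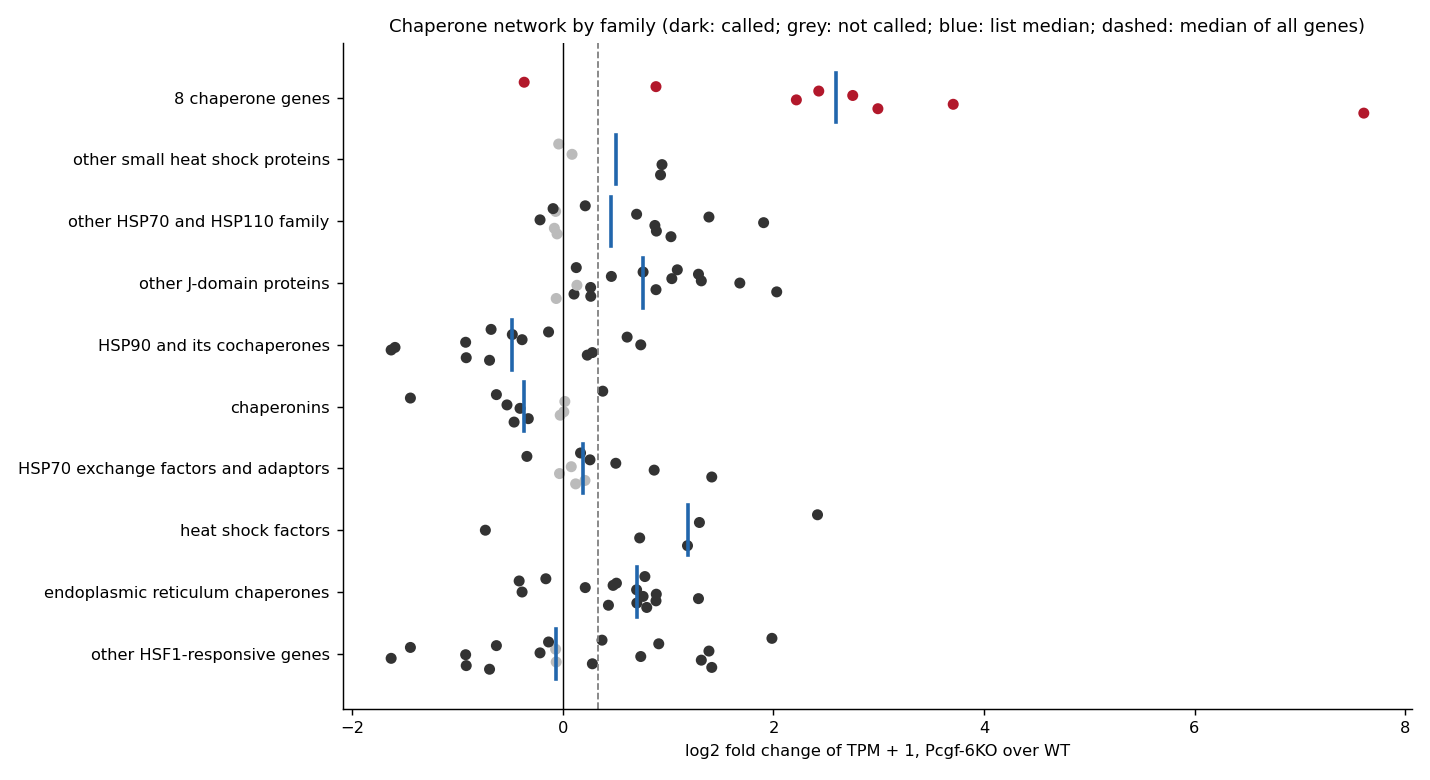
Log2 difference between Pcgf-6KO and WT for the 8 members (red, not tested) and each tested gene of the 9 other lists (dark where called by limma, grey where not), with each list's median (blue bar) and the median of all genes (dashed, 0.33). Medians of the 9 lists run from -0.48 for HSP90 and its cochaperones to 1.18 for the list of heat shock factors and Hsbp1, below the members' 2.59. The median of 1.18 is the value of Hsbp1 itself.

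Apart from the members, small heat shock genes were scarce: 4 of 7 were tested, and in Pcgf-6KO Hspb11, which encodes an intraflagellar transport subunit, and the lens crystallin gene Cryaa rose, the second at a mean of only 0.94 TPM. Hspb11 averaged 46.4 ± 3.22 TPM in Pcgf-6KO and 23.7 ± 0.384 TPM in WT (log2 difference 0.94 ± 0.13 SE, limma adjusted p = 7.75e-06). Of 12 other HSP70 and HSP110 genes 7 rose and 2 fell in Pcgf-6KO, or 6 and 5 with median ratios. Hspa2, a testis-enriched HSP70 gene, averaged 20.0 ± 0.610 TPM in Pcgf-6KO and 4.59 ± 0.265 TPM in WT (1.91 ± 0.07, adjusted p = 2.51e-12). Hspa8, the constitutive HSP70 gene, averaged 3339 ± 51.3 TPM in Pcgf-6KO and 3503 ± 15.8 TPM in WT and was not called there. Of 15 other J-domain genes 13 rose and the other 2 did not pass the test (8 rose and 3 fell with median ratios), led by Dnaja4, at 11.1 ± 0.552 TPM in Pcgf-6KO and 1.95 ± 0.0451 TPM in WT (2.03 ± 0.06, adjusted p = 9.99e-14).

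HSP90 and its cochaperones went mostly the other way, with 4 rises and 9 falls in Pcgf-6KO, or 2 and 9 with median ratios. The 2 cytosolic HSP90 genes split. Hsp90aa1, the stress-inducible form, averaged 3584 ± 234 TPM in Pcgf-6KO and 2144 ± 66.2 TPM in WT (log2 difference 0.74 ± 0.07 SE, limma adjusted p = 2.7e-07). Hsp90ab1, the constitutive form, averaged 1982 ± 75.7 TPM in Pcgf-6KO and 3761 ± 33.7 TPM in WT (-0.92 ± 0.03, adjusted p = 2.64e-12). The largest fall in the list was that of the immunophilin gene Fkbp4, to 164 ± 2.49 TPM in Pcgf-6KO against 511 ± 5.74 TPM in WT (-1.63 ± 0.03, adjusted p = 2.18e-15). Of 10 chaperonin genes 1 rose and 6 fell, while with median ratios 9 fell and Tcp1 no longer rose, and the mitochondrial HSP60 gene Hspd1 averaged 270 ± 6.01 TPM in Pcgf-6KO and 740 ± 24.2 TPM in WT (-1.45 ± 0.04, adjusted p = 1.99e-13).

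Among 10 exchange factors and adaptors 5 rose and 1 fell in Pcgf-6KO, or 2 and 5 with median ratios. Bag3, the partner of HSPB8, averaged 40.2 ± 3.85 TPM in Pcgf-6KO, 27.3 ± 0.752 TPM in Pcgf-4KO and 26.1 ± 1.21 TPM in Ring1a/b-dKO, against 14.4 ± 0.289 TPM in WT (Pcgf-6KO: log2 difference 1.41 ± 0.07 SE, limma adjusted p = 5.06e-11). In the list of 4 heat shock factor genes and Hsbp1, 4 rose and 1 fell, under both scalings. Hsf1 averaged 40.0 ± 1.48 TPM in Pcgf-6KO and 23.7 ± 1.27 TPM in WT (0.73 ± 0.06, adjusted p = 5.78e-08), whereas Hsf2 averaged 18.9 ± 0.743 TPM in Pcgf-6KO and 32.3 ± 1.72 TPM in WT (-0.74 ± 0.08, adjusted p = 1.05e-06). Hsf4 and Hsf5 were low, at 3.47 and 8.62 TPM in Pcgf-6KO, against 0.82 and 0.80 TPM in WT, and Hsbp1, which encodes a protein that binds HSF1, averaged 153.5 TPM, against 66.9 TPM in WT. Of 15 endoplasmic reticulum chaperone genes 12 rose and 3 fell, or 9 and 4 with median ratios.

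The 18 other HSF1-responsive genes split evenly in Pcgf-6KO, with 8 rises and 8 falls and a median log2 difference of -0.07, or 6 and 10 with median ratios. In this list Hspd1, Hspe1, Hsp90ab1, Fkbp4, Ahsa1, Cacybp, Stip1 and Hspa4 fell. The members split as well: Cryab, Hspb1, Hspb2, Hspb8, Hspa1a and Hspa1b were far higher in Pcgf-6KO. Dnajb1 was higher by a log2 difference of only 0.88, and Hsph1 was lower at -0.37. Bag3, Hspa4l, Dnajb4, Serpinh1, Hsp90aa1 and Chordc1 were among the listed genes that rose, and Chordc1 had a log2 difference of 0.28, or -0.08 with median ratios.

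The sum of immediate early genes, which handling of cells can switch on, was above WT in Pcgf-6KO, Pcgf-4KO and Ring1a/b-dKO. All members but Hsph1 were above WT there too. In the single knockouts the sum was below WT. Of 10 such genes 8 rose and 2 fell in Pcgf-6KO under both scalings, and their summed level was 132 to 141 TPM in Ring1a-KO, 135 to 142 TPM in Ring1b-KO, 415 to 430 TPM in Pcgf-6KO, 250 to 253 TPM in Pcgf-4KO and 271 to 282 TPM in Ring1a/b-dKO, against 151 to 158 TPM in WT. Jun averaged 79.2 ± 4.54 TPM in Pcgf-6KO and 3.67 ± 0.648 TPM in WT (log2 difference 4.11 ± 0.08 SE, limma adjusted p = 8.8e-16), but Egr1 averaged 6.55 ± 0.650 TPM in Pcgf-6KO and 15.9 ± 0.551 TPM in WT (-1.17 ± 0.06, adjusted p = 1.83e-10). The part of handling in the members' levels was not tested.

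Markers of other cell types in which Cryab is known to be abundant were also summed. Of 8 muscle markers 7 averaged 1 TPM or more in Pcgf-6KO, 5 in Pcgf-4KO and 5 in Ring1a/b-dKO, against 4 in WT, and the cardiac actin gene Actc1 was under 0.1 TPM in these knockouts. The muscle markers summed to 54.9 to 61.2 TPM in Pcgf-6KO, 57.0 to 60.9 TPM in Pcgf-4KO and 60.1 to 63.2 TPM in Ring1a/b-dKO, against 14.3 to 17.9 TPM in WT. In the single knockouts they summed to 47.8 to 50.6 TPM in Ring1b-KO and 13.3 to 16.1 TPM in Ring1a-KO. The sum was led by Myh6, at 19.9 TPM in Pcgf-6KO and 30.1 TPM in Pcgf-4KO, while Tnnc1 averaged 7.17 TPM in Pcgf-6KO and 1.42 TPM in Pcgf-4KO. The part of muscle-type expression in the Cryab level was not tested. Of 8 lens markers 2 averaged 1 TPM or more in Pcgf-6KO, against 1 in WT, and the list summed to 8.0 to 8.16 TPM in Pcgf-6KO, against 2.20 to 2.74 TPM in WT. The lens sum was higher still in Ring1b-KO, at 9.70 to 12.6 TPM, and in Ring1a/b-dKO, at 9.11 to 9.35 TPM. Crygs led the list in Pcgf-6KO at 3.80 TPM, against 4.87 TPM in Ring1a/b-dKO and 0.193 TPM in WT. The 4 astrocyte markers summed to 3.74 to 4.29 TPM in Pcgf-6KO, against 2.35 to 2.54 TPM in WT, with Aqp4 and S100b under 0.1 TPM in both. They summed to 4.44 to 6.56 TPM in Ring1b-KO and 4.74 to 7.39 TPM in Ring1a/b-dKO. The 8 fibroblast markers, for feeder cells, summed to 11.6 to 14.3 TPM in Pcgf-6KO, against 13.6 to 16.4 TPM in WT, with Lum under 0.1 TPM in both. Most of this sum was Thy1, at 9.78 TPM in Pcgf-6KO and 11.8 TPM in WT. The fibroblast sum was 20.65 to 24.59 TPM in Ring1b-KO, 19.69 to 21.76 TPM in Ring1a/b-dKO, 16.07 to 18.22 TPM in Ring1a-KO and 9.09 to 12.44 TPM in Pcgf-4KO. All 8 parietal and primitive endoderm markers averaged 1 TPM or more in Pcgf-6KO, against 4 in WT, where Gata6 was under 0.1 TPM. They summed to 1500 to 1781 TPM in Pcgf-6KO, 1043 to 1066 TPM in Pcgf-4KO and 892 to 922 TPM in Ring1a/b-dKO, against 307 to 317 TPM in WT, and Sparc alone averaged 1409 TPM in Pcgf-6KO, against 261 TPM in WT. Of these 8 markers only Sparc and Col4a1 averaged highest in Pcgf-6KO. Gata6 averaged 8.95 TPM in Pcgf-6KO and 9.86 TPM in Ring1a/b-dKO. Sox7 averaged 1.37 TPM in Pcgf-6KO and 2.04 TPM in Ring1a/b-dKO, against 0.283 TPM in WT. Lamb1 averaged 63.2 TPM in Pcgf-6KO and 68.1 TPM in Ring1b-KO, against 41.5 TPM in WT. Gata4 averaged 13.8 TPM in Pcgf-6KO and 15.2 TPM in Ring1a/b-dKO, against 0.507 TPM in WT. Sox17 averaged 4.00 TPM in Pcgf-6KO and 6.10 TPM in Ring1a/b-dKO, against 0.193 TPM in WT. Dab2 averaged 6.59 TPM in Pcgf-6KO and 10.8 TPM in Pcgf-4KO, against 1.64 TPM in WT. In the single knockouts the endoderm sum was 495 to 557 TPM in Ring1a-KO and 518 to 530 TPM in Ring1b-KO, both above WT. The summed endoderm level, mostly Sparc, was thus highest in Pcgf-6KO, as were all members but Hsph1. In Ring1a-KO it lay above WT, whereas Hspb1, Hspb2, Hspa1a and Hsph1 overlapped WT there. Its part in the members' levels was not tested.

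The protein-coding neighbours of the members, up to 2 on each side, were chosen by position. Of 24 neighbours 19 were tested, and in Pcgf-6KO against WT 10 rose and 5 fell, or 6 and 7 with median ratios. Beside the Cryab and Hspb2 pair, 2310030G06Rik averaged 17.98 ± 1.19 TPM in Pcgf-6KO and 4.74 ± 0.369 TPM in WT (log2 difference 1.72 ± 0.10 SE, limma adjusted p = 3.66e-10). On the other side 1110032A03Rik averaged 22.6 ± 3.51 TPM in Pcgf-6KO and 5.26 ± 0.488 TPM in WT (1.91 ± 0.15, adjusted p = 1.6e-08). Dixdc1 lies further out. Fdxacb1 (chr9:50768236-50773348, plus) instead lies within the span of 1110032A03Rik (chr9:50762828-50775520, minus), on the opposite strand. Dixdc1 and Fdxacb1 averaged 2.62 and 5.41 TPM in Pcgf-6KO, against 3.07 and 5.85 TPM in WT, and were not called. Shared exonic bases of Fdxacb1 and 1110032A03Rik were not counted, and the strand setting is unknown. The neighbours 2310030G06Rik and 1110032A03Rik were thus also higher in Pcgf-6KO, by far less than Cryab. At the HSP70 pair, Hspa1l, an HSP70 gene known from testis, averaged 2.12 TPM in Pcgf-6KO, 0.72 TPM in Pcgf-4KO and 1.55 TPM in Ring1a/b-dKO, against 0.70 TPM in WT.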

How the data were processed

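RNA of 18 mouse embryonic stem cell libraries (6 groups of 3) was prepared with Trizol and a TruSeq RNA kit, per the labels. The deposited values are gene-level TPM with 2 decimals, made by the authors; TopHat2 2.1.1, RSEM, edgeR and GRCm38.p5 are named in the submitters' processing notes, without roles. Read depth, strand setting and annotation release were not given in these sources, so no counting interval is given. The authors' 6 group mean columns were not used. Values were analysed as log2(TPM + 1), which understates changes of low genes, with limma 3.58.1 in R 4.3.3 (trend, 18 libraries sharing 1 spread with 12 residual degrees of freedom, 17842 genes that reached 1 TPM in 3 libraries or more, Benjamini-Hochberg within each of 7 comparisons and the interaction), tested on simulated data. Positions, neighbours and exons came from the GENCODE GRCm38 annotation, and sequences were handled with Biopython 1.88. No 2 libraries held identical values.

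The members, lists and tests were chosen with earlier results of these data known. Named genes were the members, every heat shock factor, for each list and comparison the 3 largest rises and 3 largest falls (called, at least 5 TPM in the higher group, no overlap of libraries), the 5 genes most like Cryab, Hspb1 and Hspa1b, neighbours, and targeted genes; Hspa8, Cryaa, Chordc1, Hspa1l and whole call lists of 18 or fewer genes were named after their values were seen. A gene that the rule named is not reported here. Replicate numbers did not pair the libraries: deviations from group means correlated between -0.109 and 0.071 over 45 same-numbered pairs. Alternatives were pseudocounts 0.1 and 0.5, other filters, median ratio scaling, quantile normalization, nuclear protein-coding genes only, only the groups compared, a replicate block, and leaving out each library.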

Additional observations from a re-analysis of the deposited data

Results flagged for a closer look

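The effect of Ring1b loss differed with and without Ring1a for the genes below, none of them a member, by the limma interaction over all genes (adjusted p under 0.05, 2-sided); all genes had a median of 0.15 on this log2 scale, and the direction of the network's split depends on scaling. The largest positive values were those of immediate early genes and a heat shock factor: Egr1 3.56, Junb 1.89, Jun 1.73 and Hsf4 1.72. Among the other small heat shock and HSP70 genes the values were Hspb11 1.41, Hspa12a 1.37, Hspa2 0.67, Hyou1 0.27 and Hspa9 -0.15. J-domain genes had Dnajb5 0.98, Dnaja4 0.78, Dnajb11 0.53 and Dnajb6 -0.38. HSP90 and its cochaperones had Hsp90aa1 0.66, Fkbp5 0.31, Cacybp -0.59, Hsp90b1 -0.67 and Fkbp4 -0.72. Chaperonins had Cct3 0.30, Cct8 0.16, Cct2 -0.20, Tcp1 -0.28 and Hspd1 -0.82. Exchange factors had Bag3 0.96, Bag2 0.83 and Bag5 0.42, and Hsf5 had 1.14 and Hsbp1, which encodes an HSF1-binding protein, 0.49. Endoplasmic reticulum chaperones had Sdf2l1 0.88, Herpud1 0.51, Pdia4 -0.31 and Pdia3 -0.35. Ubb, which encodes polyubiquitin, had 0.92.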

How the results depend on the processing

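The members' values moved by less than the replicate spread in 1657 cases and by more in 135, and the Cryab difference in Pcgf-6KO stayed between 7.28 and 7.95. Most of the larger moves came with scaling: 43 values moved and 21 did not with median ratios, and 40 moved and 24 did not with quantile normalization. Median ratio scaling, which sets the median of all genes near 0, gave network rises and falls of 12 and 37 in Ring1b-KO, 24 and 39 in Ring1a/b-dKO, 23 and 36 in Pcgf-4KO and 34 falls in Pcgf-6KO, 25 and 32 in Ring1a/b-dKO against Ring1b-KO, and 20 and 25 for the interaction. It also turned these log2 differences from WT: Pdcl3 -0.032, Chordc1 -0.067, Hspbp1 -0.0058, Mdh2 -0.11 and Suds3 -0.13 in Ring1a/b-dKO; Cct8 -0.21, Ywhag -0.10, Suds3 -0.10 and Ndufb7 -0.029 in Pcgf-4KO; Chordc1 -0.083, Mdh2 -0.10, Ndufb7 -0.019 and Gipc1 -0.0077 in Pcgf-6KO; Ywhag -0.14, Suds3 -0.15 and Gipc1 -0.16 in Ring1b-KO. Quantile normalization gave 0 members at least 2-fold higher in Ring1a-KO and 1 in Ring1b-KO, and turned Srrm3 to -0.62 and Neu1 to -0.057 in Pcgf-6KO, and Neu1 to -0.0083 and Hspa1l to -0.33 in Pcgf-4KO. In Ring1a-KO against WT, without Ring1a-KO replicates 2 and 3, 2169 genes were called in all, against 4123, with 6 network falls and 2 members at least 2-fold higher. With only the groups compared in the fit there were 7 network rises and 8 falls. Leaving out 1 library at a time gave 7 (without WT replicate 1) to 16 rises, 10 (without WT replicate 1) to 19 falls, and 1 to 2 members (2 without Ring1a-KO replicate 2 or WT replicate 3). Falls were 11 without Ring1a-KO replicate 2 or without WT replicate 2. On the forward strand only, 0 members held the 3-unit element and 1 held CCAAT. With the replicate block no count moved by over 1.5 times: 13204 genes were called in Pcgf-6KO against WT, beside 13236 without it, and the numbers share no source in the labels. Of the named genes' values under alternatives, 11479 kept their call, 245 lost it, 70 gained one and 20 turned. Beyond those named, the cause was not tested. Protein identity between members was not run. Depth is unknown, which limits the precision of low values such as Hspb2 in WT.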
